A study of Rattus norvegicus with 16 samples.

Results

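The insulin-like growth factor axis was examined in hearts of 2-day-old rats through 10 genes, which encode the ligands Igf1 and Igf2, the receptors Igf1r, Igf2r, Insr and Ghr, and the binding proteins Igfbp2, Igfbp3, Igfbp4 and Igfbp5. Members were the probe sets whose platform annotation names a single gene symbol belonging to one of these 10 genes, and the brightest probe set stood for each gene, 10 of the 14324 genes named on the array. Hearts of the Hypertrophic Heart Rat (HHR), labelled hypertrophic, were compared with hearts of the control strain, the Normal Heart Rat (NHR), labelled normal. Each of 4 groups held 4 animals on 1 array each: females and males of HHR, then females and males of NHR, with no treatment named in the labels. Values are log2 expression from Affymetrix Rat Gene 1.0 ST arrays, where a difference of 1 is a doubling.

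Insulin-like growth factors are small secreted hormones that act on nearby cells as well as through the blood. Both bind the receptor tyrosine kinase Igf1r, which drives growth and survival of heart muscle cells, whereas Igf2r carries Igf2 to lysosomes and so removes it. Growth hormone, acting through Ghr, raises Igf1 output, chiefly in liver, and the binding proteins hold the ligands in a reserve that proteases release. Igf2 is the main ligand of fetal tissues in rodents and is expressed from the paternal allele.

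The arrays had medians between 7.19 and 7.28, and pairs of arrays correlated at 0.990 to 0.998 across probe sets. The design text speaks of ventricles dissected from the atria and a growth protocol of the whole heart. Heart muscle markers were bright in every group (Actc1 averaged 14.24 in HHR and 14.22 in NHR), and atrial markers were present, 2 of 4 higher in HHR by limma. Of these, Bmp10 rose by 1.05 (adjusted p = 9.5e-06) and Nppa by 0.34 (adjusted p = 2.9e-04). By sex, Bmp10 rose by 1.75 in females and 0.36 in males, and Nppa by 0.52 and 0.16. Both passed in females (limma adjusted p = 4.6e-06 and 4.8e-04) and neither in males (0.213 and 0.236). The male minus female differences did not pass (limma adjusted p = 0.243 and 0.964). Myl7, at 12.95 in HHR and 12.88 in NHR, and Sln, at 8.69 in HHR and 8.35 in NHR, did not pass for strain. The first principal component of the deviations from group means held 26.7% of their variance. On it NHR male 4 scored 22.6, NHR females 4 and 3 scored 15.1 and 14.4, and no other NHR array scored above 1.74. The NHR arrays numbered 1 and 2 lay at the opposite end, between -16.9 and -11.1, and HHR arrays lay between -3.72 and 7.48. Results that rest on the 3 highest NHR arrays, referred to below as those that scored apart, are also given without them. That choice was made after seeing the data and takes arrays from 1 end of the component only.

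Of the 10 genes, 1 passed the test for strain, the ligand gene Igf1, which was lower in HHR. The other 9 did not pass, and 0 genes were called higher. The call rests on limma with Benjamini-Hochberg adjustment over all 27342 probe sets, at an adjusted p under 0.05. By that rule 20.7% of all probe sets were called for strain, 11.0% lower and 9.64% higher, so the share of 10% among the genes lies below the background of this comparison. An unadjusted p under 0.05 was reached by 3 of the 10 genes (Igf1, Ghr and Igfbp2) and by 33.2% of probe sets. The median difference over the 10 genes was -0.04, and over all probe sets it was -0.03.

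**Figure D1:**
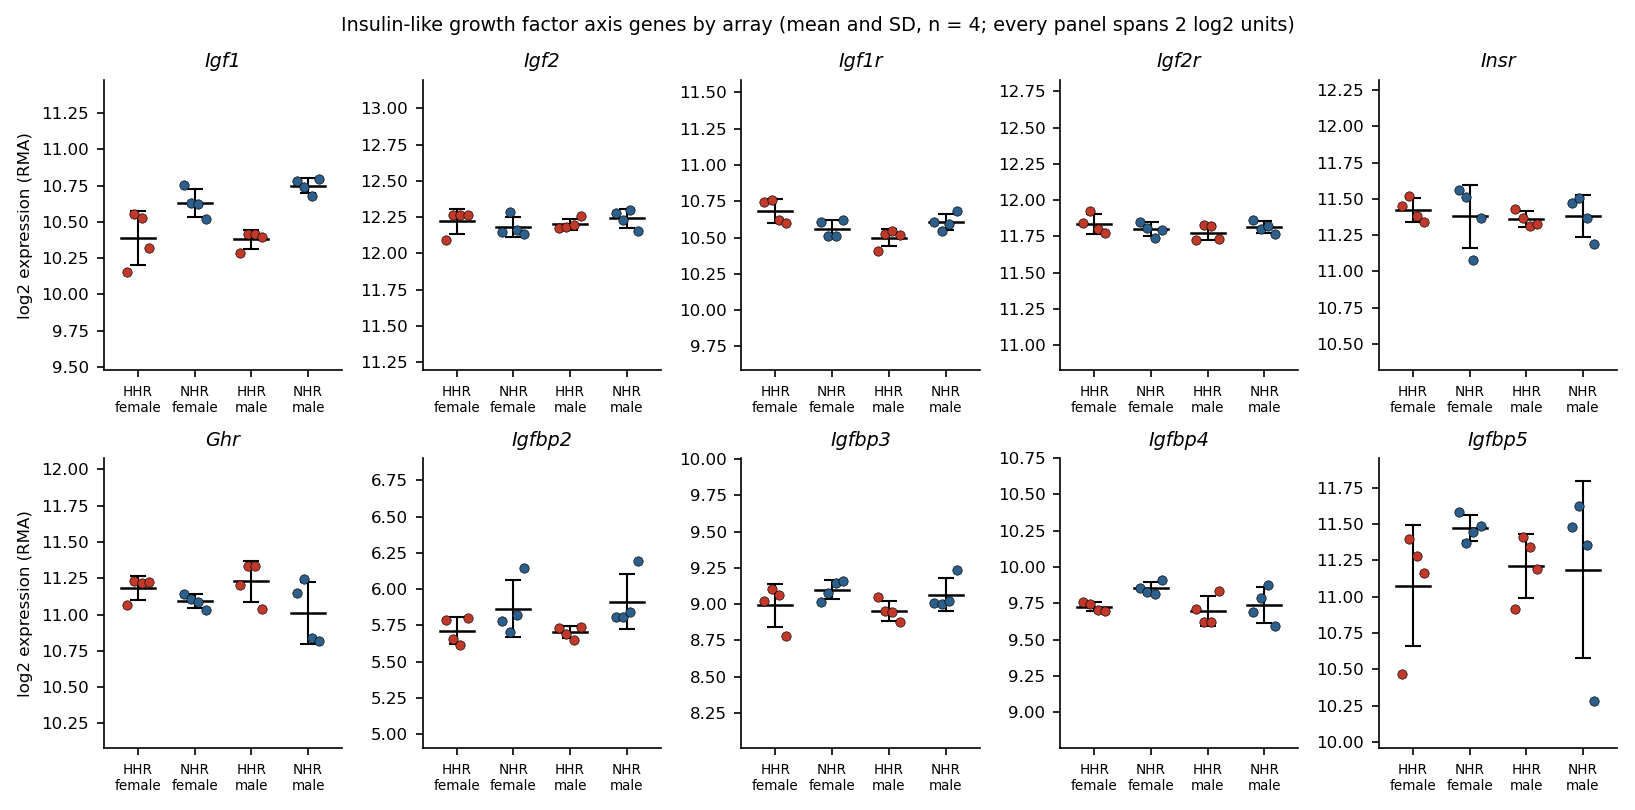
Log2 expression (vertical axis, RMA values) of the 10 genes in each array, by group (horizontal axis), with HHR in red and NHR in blue. Horizontal lines are group means and error bars are SD (n = 4); every panel spans 2 log2 units. Igf1 was lower in both HHR groups, and Igfbp5 was widely spread, with HHR female 1 at 10.47 and NHR male 4 at 10.28.

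Igf1, the ligand that growth hormone induces, had log2 levels of 10.16, 10.56, 10.53 and 10.32 in HHR females and 10.28, 10.42, 10.41 and 10.40 in HHR males. In NHR the levels were 10.75, 10.63, 10.62 and 10.52 in females and 10.78, 10.74, 10.68 and 10.80 in males. The HHR arrays lay low, 6 of 8 below the lowest NHR array, and the ranges overlapped through HHR females 2 and 3 and NHR female 4. A pattern of 6 or more HHR arrays below the lowest NHR array was seen in 6.61% of all probe sets. Igf1 averaged 10.38 ± 0.13 in HHR and 10.69 ± 0.10 in NHR (SD, n = 8), a log2 difference of -0.31 (SE 0.06, 95% interval -0.42 to -0.19, limma adjusted p = 0.0012). This is a level 0.81 times that of NHR (95% interval 0.74 to 0.88).

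Within each sex the Igf1 difference was negative, and it passed the test in males. In males it was -0.37 (SE 0.08, limma adjusted p = 0.0145), and all 4 HHR males lay below the lowest NHR male. The share of all probe sets with that separation in males was not counted. In females the Igf1 difference was -0.24 (SE 0.08, adjusted p = 0.0593), and HHR females 2 and 3 overlapped the NHR females. The difference between the sexes was -0.13 (95% interval -0.37 to 0.11, adjusted p = 0.994), so the male and female differences were not shown to be unequal. Leaving out HHR male 1 ended the male call, at a difference of -0.34 (adjusted p = 0.0539), and leaving out HHR female 2 or HHR female 3 brought the female difference past the threshold (-0.30 and -0.29, adjusted p = 0.0336 and 0.0466). Across both sexes, leaving out any single array kept the call, with differences between -0.33 and -0.27. Without the 3 NHR arrays that scored apart it was -0.33 (adjusted p = 0.00451).

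Igf1 is made by several cell types of the heart, including fibroblasts and macrophages, and in whole tissue fewer cells of a type and less RNA per cell cannot be told apart. Of 7 fibroblast markers, 3 rose in HHR and 0 fell, and their mean log2 level ran from 11.05 to 11.33 over HHR arrays and from 10.85 to 11.10 over NHR arrays. Of 4 leukocyte markers, 1 rose (C1qb, 0.38) and 1 fell (Ptprc, -0.27), with mean levels of 7.22 to 7.58 in HHR and 7.29 to 7.45 in NHR. Of 7 heart muscle markers, 3 fell and 0 rose, with mean levels of 13.15 to 13.20 in HHR and 13.23 to 13.30 in NHR. All 3 endothelial markers fell, Cldn5 by 0.41, Tie1 by 0.22 and Cdh5 by 0.16, with mean levels of 10.07 to 10.23 in HHR and 10.29 to 10.53 in NHR. The mean levels of the strains did not overlap for heart muscle or for endothelium. Over all probe sets taken singly, 20.7% were called for strain by limma and 4.15% had strains that did not overlap. No such share was computed for averages over several probe sets. The part of these cell types in the Igf1 difference was not tested.

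The window upstream of an annotated Igf1 start is shown because Igf1 was the 1 gene of the 10 that differed. It is the 250 bases before a RefSeq start on the plus strand of assembly GRCr8, chr7:24172282-24172531. Other Igf1 transcripts of that assembly begin further upstream, so the window lies within the gene. Capitals mark E-box letters (CANNTG, searched on both strands, which read alike).
Igf1 upstream window: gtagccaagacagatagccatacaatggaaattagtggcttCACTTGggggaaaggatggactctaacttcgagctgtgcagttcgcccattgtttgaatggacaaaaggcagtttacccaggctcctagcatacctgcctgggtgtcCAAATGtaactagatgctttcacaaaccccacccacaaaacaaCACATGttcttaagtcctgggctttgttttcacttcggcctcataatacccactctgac
The 3 matches begin 209, 102 and 59 bases before the start, and 65.5% of the 33469 windows of this length in the table hold at least 1 such match. The letters TATAAA (in 12.9% of windows), GGGCGG (30.5%) and TTCNNNGAA, the letters bound by Stat5 (7.67%), have 0 matches here on either strand. These are letter matches and carry no measurement of binding.

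The profiles most like that of Igf1 over the 16 arrays, by the root mean square difference of mean-centred log2 values, were those of Tmco4 (0.09), the lysosomal protease gene Ctsd (0.09) and Osbp2 (0.10), against a root mean square of 0.19 for the Igf1 profile itself. For Igfbp2 the nearest were Abcc4, Rhox7 and Fgf8 (0.08 each). For Ghr they were Prickle2 (0.05), Faah (0.07) and Slc10a7 (0.07).

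Igf2, the fetal ligand, did not pass the test, and the sign of its difference turned with the scaling. Its lowest, median and highest levels were 12.09, 12.22 and 12.26 in HHR and 12.14, 12.20 and 12.30 in NHR, and the ranges overlapped almost fully. The means were 12.21 ± 0.06 in HHR and 12.21 ± 0.07 in NHR (SD, n = 8), with a 95% interval of the difference of -0.09 to 0.09 (limma adjusted p = 0.992). On the linear scale of the deposited values this allows a level between 0.94 and 1.06 times that of NHR. The difference was -0.08 (SE 0.04, adjusted p = 0.214) after quantile normalization, -0.05 (adjusted p = 0.466) after cyclic loess and 0.02 (adjusted p = 0.787) after median centring.

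None of the 4 receptor genes passed the test for strain (limma adjusted p of 0.102 to 0.988, unadjusted p under 0.05 for 1 of them, Ghr). Igf1r, the signalling receptor of both ligands, averaged 10.59 ± 0.12 in HHR and 10.59 ± 0.06 in NHR (SD, n = 8), with a 95% interval of the difference of -0.08 to 0.09. Igf2r, which clears Igf2, averaged 11.81 ± 0.06 in HHR and 11.80 ± 0.04 in NHR (interval -0.08 to 0.08). Insr, the insulin receptor, averaged 11.39 ± 0.07 in HHR and 11.38 ± 0.17 in NHR (interval -0.13 to 0.15). Without the 3 NHR arrays that scored apart the Insr difference was -0.10, and Insr passed in none of 30 alternatives (lowest limma adjusted p = 0.185). The differences of these 3 genes were positive as deposited and after median centring, and negative after quantile normalization and cyclic loess, where they lay between -0.05 and -0.02. A dimmer second Insr probe set differed by -0.08 (SE 0.05, adjusted p = 0.265), against 0.01 for the brightest.

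Igf1r was the gene of the 10 with the smallest p for a difference between the sexes in the strain effect. HHR females had 10.74, 10.76, 10.62 and 10.60 and NHR females 10.61, 10.51, 10.51 and 10.62. HHR males had 10.41, 10.52, 10.55 and 10.52 and NHR males 10.61, 10.55, 10.59 and 10.68. In females HHR lay mostly above NHR, with overlap. In males all 4 HHR arrays lay below all 4 NHR arrays, though the nearest arrays of the strains both round to 10.55. How many probe sets separate in this way within males was not counted. The strain difference was 0.12 (SE 0.06) in females and -0.11 (SE 0.06) in males, and the male minus female difference between them was -0.23 (SE 0.08, unadjusted p = 0.014, limma adjusted p = 0.969). It did not pass. Over all probe sets 0 were called for this interaction by limma, and 5.08% had an unadjusted p under 0.05, against 1 of the 10 genes.

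Ghr, the receptor through which growth hormone induces Igf1, had lowest, median and highest levels of 11.04, 11.22 and 11.34 in HHR and 10.82, 11.09 and 11.24 in NHR. The groups overlapped, with 2 HHR arrays above the highest NHR array. The difference was 0.16 (SE 0.07, 95% interval 0.02 to 0.29, limma adjusted p = 0.102) and did not pass. Leaving out NHR male 2 brought it past the threshold (0.19, adjusted p = 0.0288). Without the 3 NHR arrays that scored apart it was 0.11 (adjusted p = 0.373).

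**Figure D2:**
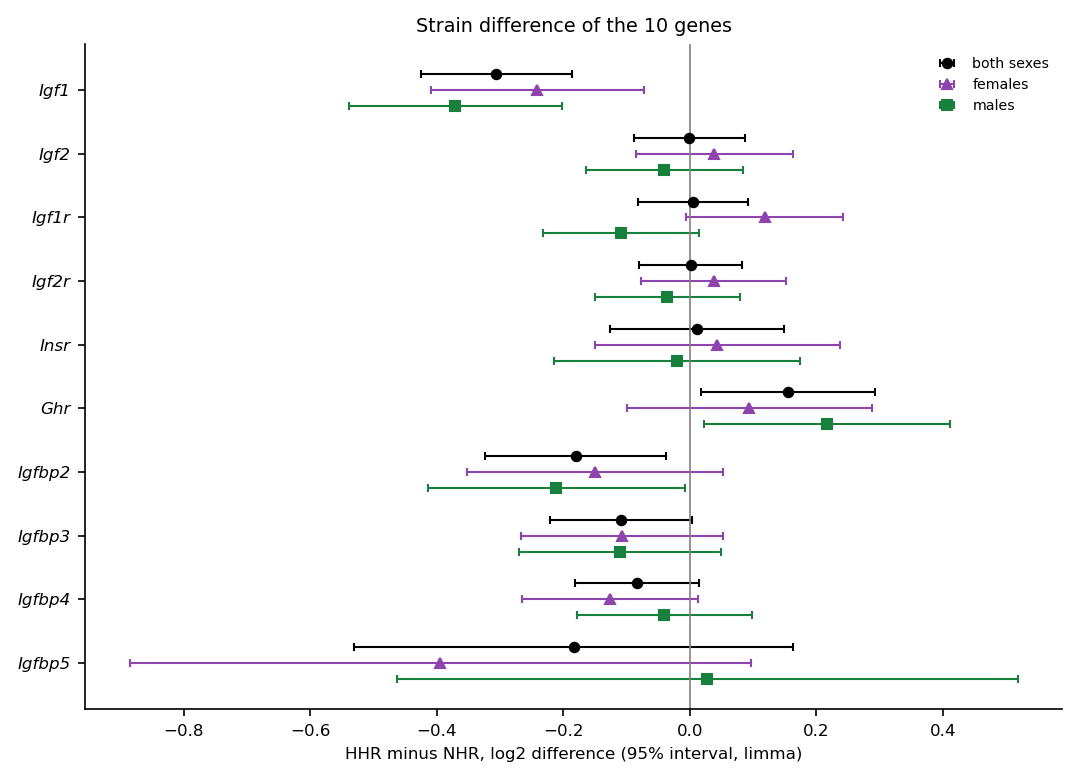
HHR minus NHR log2 difference (horizontal axis) of the 10 genes for both sexes together, females and males, with 95% intervals from limma. The intervals are not adjusted for the number of probe sets. For Igf1 all 3 intervals lie below 0, from -0.54 at the lowest bound to -0.07 at the highest, while those of Igf2, Igf2r and Insr each span 0. For both sexes together and for males, the intervals of Ghr lie above 0 and those of Igfbp2 below 0, though neither gene passed the test.

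The 4 binding protein genes all had negative differences over both sexes, and none passed the test (limma adjusted p of 0.0701 to 0.472, unadjusted p under 0.05 for 1 of them, Igfbp2). A negative difference was common on the array, seen in 16587 of all 27342 probe sets, and in males alone Igfbp5 differed by 0.03. Over both sexes the direction of each of the 4 genes was the same after quantile normalization, median centring and cyclic loess. Igfbp2, a binding protein with high affinity for Igf2, was dim. Its lowest, median and highest levels were 5.61, 5.71 and 5.80 in HHR and 5.71, 5.81 and 6.20 in NHR, and 4 of 8 HHR arrays lay below the lowest NHR array. The highest levels belonged to NHR female 4 (6.15) and NHR male 4 (6.20), both among the arrays that scored apart. The difference was -0.18 (SE 0.07, 95% interval -0.32 to -0.04, adjusted p = 0.0701), and without the 3 arrays it was -0.07 (adjusted p = 0.326). Leaving out NHR female 2 brought it past the threshold (-0.21, adjusted p = 0.044).

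Igfbp3, the main carrier of both ligands in the blood, averaged 8.97 ± 0.11 in HHR and 9.08 ± 0.09 in NHR (SD, n = 8), a difference of -0.11 (95% interval -0.22 to 0.00, limma adjusted p = 0.165). Without the 3 NHR arrays that scored apart the Igfbp3 difference was -0.05 (adjusted p = 0.588). Igfbp4, which mostly restrains the ligands until cleaved, averaged 9.71 ± 0.07 in HHR and 9.80 ± 0.10 in NHR, a difference of -0.08 (interval -0.18 to 0.01, adjusted p = 0.225). Its 4 NHR females, at 9.82 to 9.91, lay above the 4 HHR females, at 9.70 to 9.76, and the difference in females was -0.13 (adjusted p = 0.236). The share of probe sets so separated within females was not counted.

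Igfbp5, a binding protein that also attaches to the extracellular matrix, had the largest SD of the 10 genes in HHR females, HHR males and NHR males, but not in NHR females. HHR females had 10.47, 11.39, 11.28 and 11.16 and HHR males 10.91, 11.41, 11.34 and 11.19. NHR females had 11.58, 11.37, 11.45 and 11.48 and NHR males 11.48, 11.63, 11.36 and 10.28. A single low array in HHR females and in NHR males set the spread, with group SDs of 0.42 and 0.61, against 0.09 in NHR females. The strain difference was -0.18 (SE 0.16, 95% interval -0.53 to 0.16, limma adjusted p = 0.472). Leaving out NHR male 4 alone gave -0.33 (adjusted p = 0.0503), and leaving out HHR female 1 alone gave -0.08 (adjusted p = 0.763). With both left out, which was tried only after these values had been seen, it was -0.23 (adjusted p = 0.0462). RefSeq places Igfbp2 and Igfbp5 side by side on chromosome 9 of assembly GRCr8. NHR male 4, the array highest for Igfbp2, was the lowest for Igfbp5, whereas NHR female 4, also high for Igfbp2, had an Igfbp5 level of 11.48, and HHR female 1, low for Igfbp5, had an Igfbp2 level of 5.78.

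Within each sex the counts were as small, with a share above the background in males, through 1 gene, and below it in females. In males 1 of the 10 genes passed for strain, Igf1, a share of 10% against 4.02% of all probe sets. There 3 genes had an unadjusted p under 0.05, against 19.4% of probe sets. In females 0 passed by limma, against 12% of probe sets called, and 1 had an unadjusted p under 0.05, again Igf1, against 26.4%. For males against females averaged over the strains 0 of the 10 genes passed and 0 had an unadjusted p under 0.05, with differences between -0.07 and 0.05, while 0.0110% of all probe sets were called and 6.40% had an unadjusted p under 0.05. When the 4 group means of each gene were put in order, 0 of the 30 pairs of neighbouring groups differed by limma, and 1 had an unadjusted p under 0.05. That pair was HHR females and NHR females for Igf1, whose order ran HHR males 10.38 ± 0.06, HHR females 10.39 ± 0.19, NHR females 10.63 ± 0.10 and NHR males 10.75 ± 0.05 (SD, n = 4).

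Other genes of the pathway were taken from a list of ligands, receptors, binding proteins, proteases, imprinted partners, receptor adaptors and growth hormone signalling genes, 41 of which were measured, the 10 above included. Of these 41, 3 rose in HHR (Enpp1, Stc1 and Socs2), 2 fell (Igf1 and Grb14) and 36 did not pass by limma. The called share was 12.2%, against 20.7% of all probe sets, and the median difference was -0.01, against -0.03. Without the 3 NHR arrays that scored apart, 1 rose (Enpp1) and 2 fell (Igf1 and Grb14). The share of all probe sets called in that smaller fit is not given here, so the lower count is not read as a result about these genes. By role, the called genes were 1 of 4 ligands, 0 of 5 receptors, 0 of 8 binding proteins, 1 of 4 proteases and their inhibitors, 0 of 3 mRNA binding or imprinted genes, 1 of 6 adaptors, 1 of 7 growth hormone signalling genes and 1 of 4 genes of receptor damping and hormone breakdown.

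**Figure D3:**
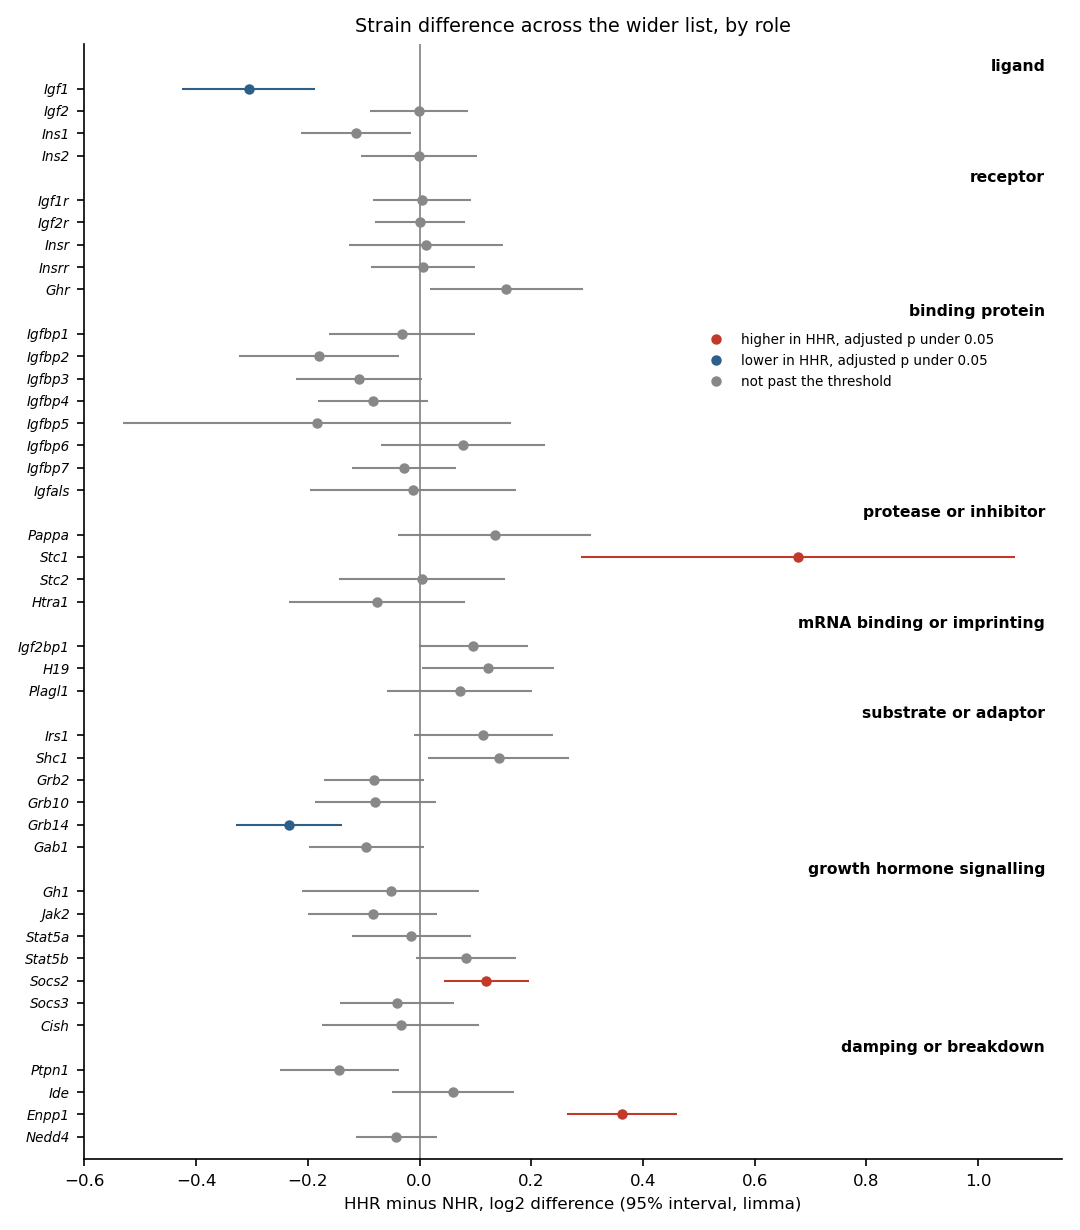
HHR minus NHR log2 difference (horizontal axis) of the 41 measured genes, grouped by role, with 95% intervals from limma. Red genes rose and blue genes fell at an adjusted p under 0.05, and grey genes did not pass. Stc1 had the largest difference, 0.68, and the widest interval, 0.29 to 1.07.

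Enpp1, a membrane enzyme that makes pyrophosphate and can inhibit the insulin receptor, had lowest, median and highest levels of 10.63, 10.73 and 10.86 in HHR and 10.26, 10.37 and 10.50 in NHR. The strains did not overlap, with HHR above NHR in 8 of 8 arrays, a separation in either direction seen in 4.15% of probe sets. It rose by 0.36 (SE 0.05, limma adjusted p = 6.0e-05). Grb14, an adaptor that binds the active insulin receptor and restrains it, had 10.07, 10.19 and 10.28 in HHR and 10.32, 10.40 and 10.61 in NHR. All 8 HHR arrays lay below the lowest NHR array. It fell by 0.23 (SE 0.05, adjusted p = 0.00172). Both calls held without the 3 NHR arrays that scored apart (adjusted p = 0.00119 for Enpp1 and 0.014 for Grb14).

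Stc1 encodes stanniocalcin 1, a secreted protein that in humans blocks the protease which cleaves Igfbp4. It had 10.62, 10.31, 10.30 and 10.65 in HHR females and 10.91, 10.64, 10.66 and 10.63 in HHR males. NHR females had 10.35, 10.06, 9.55 and 9.54 and NHR males 10.55, 10.64, 9.25 and 9.37. The NHR arrays numbered 3 and 4 were low, between 9.25 and 9.55, and those numbered 1 and 2, between 10.06 and 10.64, overlapped HHR. It rose by 0.68 (SE 0.18, limma adjusted p = 0.0148), and the call was lost without the 3 NHR arrays that scored apart (0.42, adjusted p = 0.152). It was also lost without HHR female 1 and NHR male 4 together (0.56, adjusted p = 0.0558). Pappa, that protease, differed by 0.13 (adjusted p = 0.27), and Stc2, the relative of Stc1, by 0.00 (95% interval -0.14 to 0.15).

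Socs2, a feedback inhibitor of growth hormone receptor signalling, averaged 11.30 ± 0.04 in HHR and 11.18 ± 0.05 in NHR (SD, n = 8), with 7 of 8 HHR arrays above the highest NHR array. Full separation of the strains was seen in 4.15% of probe sets, and the share with 7 of 8 was not counted. Socs2 rose by 0.12 (SE 0.04, limma adjusted p = 0.0264). The call was lost after quantile normalization (0.09, adjusted p = 0.0789) and cyclic loess (0.09, adjusted p = 0.108), and without the 3 NHR arrays that scored apart (0.11, adjusted p = 0.0883). It was also lost, at a difference of 0.11 each time, on leaving out HHR male 4 (adjusted p = 0.0555), NHR female 3 (0.0524) or NHR male 3 (0.052). Among genes of that signalling route, Jak2, Stat5a and Stat5b differed by -0.08, -0.01 and 0.08 and did not pass (adjusted p of 0.183 to 0.872).

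**Figure D4:**
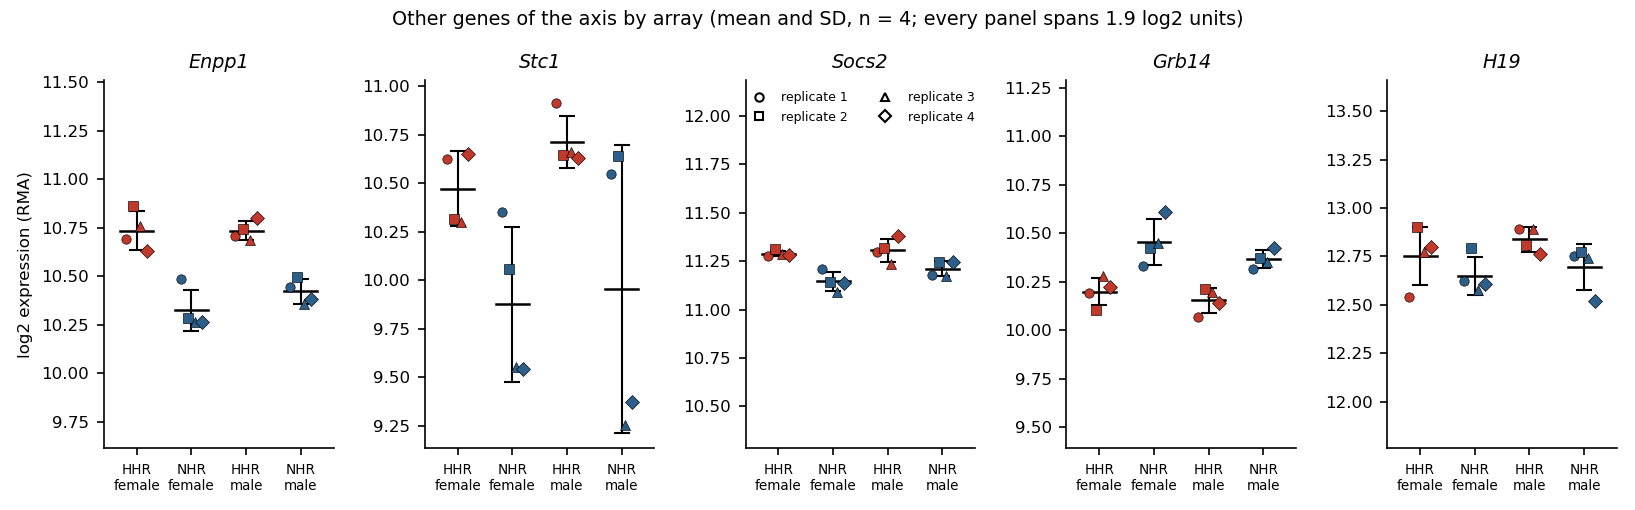
Log2 expression (vertical axis, RMA values) of Enpp1, Stc1, Socs2, Grb14 and H19 in each array, by group (horizontal axis), with HHR in red and NHR in blue and the marker shape giving the replicate number. Lines and bars are mean and SD (n = 4), and every panel spans 1.9 log2 units. Enpp1 and Grb14 separate the strains, whereas the Stc1 difference comes with low NHR arrays numbered 3 and 4.

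H19, the imprinted RNA that neighbours Igf2 and is expressed from the maternal allele, differed by 0.12 on its brightest probe set (SE 0.06, limma adjusted p = 0.137) and by -0.19 on the other (SE 0.08, adjusted p = 0.101), so the probe sets disagreed in sign and neither passed. Leaving out HHR female 1 brought the brightest past the threshold. Igf2bp1, which binds Igf2 mRNA, differed by 0.10 (adjusted p = 0.154), and the substrate gene Irs1 by 0.11 (adjusted p = 0.188). Of the remaining binding protein genes, Igfbp1, Igfbp6, Igfbp7 and Igfals differed by -0.03, 0.08, -0.03 and -0.01 (adjusted p of 0.469 to 0.945). Igf2bp2, Igf2bp3 and Irs2 were not analysed here.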

How the data were processed

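The values deposited by the authors are on a log2 scale. RMA, named in the submitters' processing notes beside limma, subtracts background, equalises arrays and condenses the probes of a set into 1 value. Its version and any filter are not given in the sources used here. No background level came with the arrays, whose number limits precision. Of 27342 probe sets, 15097 carry 1 gene symbol, 323 several and 11922 none. All 10 members matched a gene ID in RefSeq's GRCr8 table under the same symbol. The array's genome build is not given, so no coordinates of its probe sets are printed. The Igf1 window and the places of Igfbp2 and Igfbp5 are given on GRCr8.

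Group means were fitted to all 16 arrays with limma 3.58.1 in R 4.3.3, moderated by empirical Bayes and with Benjamini-Hochberg adjustment across the whole table and calls made under 0.05. Errors of differences are moderated SE. The script was tested on simulated data. The members and lists (axis, and markers of heart muscle, atrium, fibroblast, endothelium, mural cells, epicardium, leukocytes, red cells and liver) were chosen with earlier results of these data known. Named genes were the 10 members, list genes past the threshold, 14 fixed list genes where measured, and 3 nearest profiles for each of the 3 members with the smallest p; others named were chosen after their values were seen. Litters are unnamed in the labels. A sequence variant under a probe cannot be told apart from a change in RNA level. Nothing says that a replicate number marks a batch or litter, and p-values measure only the spread between these animals. Alternatives changed the normalization, probe set choice, filter, threshold, replicate block and arrays used. Markers not given in the report were 0 higher and 1 lower of 4 (mural cells), 2 and 0 of 4 (epicardium), 1 and 1 of 3 (red cells) and 1 and 0 of 4 (liver).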

Additional observations from a re-analysis of the deposited data

Results flagged for a closer look

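In groups of 4 arrays, a value was singled out where its gap to the nearest other array exceeded Dixon's limit. Of 92 groups of 23 named genes, 9 held such an array, and chance gives about 1 in 20. Among the ligands, HHR male 1 was low for Igf1 (10.28, the others 10.40 to 10.42) and HHR female 1 was low for Igf2 (12.09, the others 12.26). HHR female 1 was also low for Ghr (11.06, the others 11.22 to 11.23). NHR male 4 was high for Igfbp2 (6.20, the others 5.81 to 5.84) and Igfbp3 (9.23, the others 9.00 to 9.02), and low for H19 (12.52, the others 12.74 to 12.78). HHR male 1 was high for Stc1 (10.91, the others 10.63 to 10.66), NHR female 1 for Enpp1 (10.48, the others 10.26 to 10.29) and HHR female 4 for Stc2 (8.70, the others 8.57 to 8.58).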

How the results depend on the processing

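The Igf1 strain difference stayed between -0.33 and -0.26 over 30 alternatives (adjusted p of 6.8e-04 to 0.00451), and a minimum of 1.5-fold alone ended its call, leaving 0 of the 10 genes called for strain and 0 in males. The count of the 10 genes called for strain was 2 with a replicate block (Igf1 and Igfbp2, -0.18, adjusted p = 0.0187) and without both HHR female 1 and NHR male 4 (Igf1 and Igfbp5), and 1 to 2 with single arrays left out. The block changed no other call for the 10 genes and gave 7 on the wider list. Same-numbered arrays of different groups deviated from their group means with correlations of -0.11 to 0.37, over 0.1 in 11 of 24 pairs. Of 16 arrays, 9 deviated most like an array of the same number in another group, a hint from the data and not the design. The count that chance would give was not computed. The labels name no pairing, and the main fit did not take the numbers as pairs. In females the count was 1 (Igf1) after the filter on dim probe sets, with single-gene probe sets only, and after quantile normalization or cyclic loess, and 0 to 1 with single arrays left out. In males it was 0 at a threshold of 0.01, and 0 to 1 with single arrays left out. The wider list gave 3 calls at a threshold of 0.01, 1 (Stc1) at 1.5-fold, 3 without the 3 NHR arrays that scored apart, and 4 to 8 with single arrays left out, the 8 without NHR male 2. Over all probe sets, 2893 passed at 0.01 and 229 at 1.5-fold, against 5651, with 4651 to 6402 when single arrays were left out. The count over all probe sets without the 3 NHR arrays that scored apart is not given here. Median centring moved the higher share of those calls to 56.3%, against 46.6%. The counts for sex and for the interaction stayed at 0 in every alternative run. The filter on dim probe sets removed Igfbp2.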

Other observations

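The profiles most like that of Igfbp5 over the 16 arrays, looked for after its values had been seen, were those of Sox4 (root mean square difference 0.18 on the log2 scale), Lbp (0.22) and Acss3 (0.22), against a root mean square of 0.37 for Igfbp5 itself. Sox4, a transcription factor gene of developing heart, had its lowest levels in the same arrays as Igfbp5, 9.47 in HHR female 1 and 9.30 in NHR male 4, with 9.65 to 10.31 in the other arrays. For Lbp and Acss3 these 2 arrays were not both the lowest, with 8.56 in HHR female 1 and 8.45 in NHR male 4 for Lbp (lowest other array 8.53), and 8.56 in HHR female 1 and 8.54 in NHR male 4 for Acss3 (lowest other array 8.52). A likeness is fixed by choosing the nearest profiles, and no test was made.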
